A study of Mus musculus with 2 samples.

Results

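Interferon-stimulated genes are the genes that cells switch on when interferon reaches its receptor, and they carry out most of the antiviral work of that cytokine. The set described here was a list of 50 mouse genes, among 12123 genes with named junction reads in the data, and 40 of the 50 had at least 20 reads over both libraries together. The members were taken by name from a fixed list and not by a threshold on a measured value. That list was chosen with earlier results of these data known. The data are RNA sequencing of macrophages kept with interleukin 10 (IL-10) at 100 ng/ml for 4 h, against untreated macrophages, with 1 library per group. Both came from male C57BL/6JJcl mice with no genetic change named. Thioglycolate, an irritant broth, was injected into the peritoneum 3 days before the cells were washed out, and the cells were left to adhere for 24 h so that non-adherent cells could be removed. How many mice were pooled is not given in the sources used here, and the protocol text is the same for both samples and describes IL-10 treatment, so the groups rest on the sample titles. The question is how IL-10 shifts the transcriptome, and here what it does to the interferon-stimulated part of it.

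Type I interferons signal through the receptor chains Ifnar1 and Ifnar2 and the kinases Jak1 and Tyk2 to a transcription factor complex called ISGF3, which contains Stat2 and Irf9. That complex binds a short DNA element, the interferon-stimulated response element, in front of its target genes. Macrophages keep a low level of this programme without infection, from small amounts of interferon made locally. IL-10 signals instead through Stat3 and restrains inflammatory gene expression in macrophages.

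The measured value is the number of reads that span a splice junction, summed over the introns that belong to a gene alone. The IL-10 library held 3998954 junction reads and the untreated library held 4035991, of which 3845700 and 3874884 could be given to a single gene. A ratio is the IL-10 value over the untreated value after division by those last totals. Its 95% interval is an exact binomial (Clopper-Pearson) interval that covers counting error only. A gene is called higher or lower where it has at least 20 reads, differs at least 2-fold and has an interval that excludes 1. With 1 library per group there is no replicate check and no test between conditions, so every ratio compares these 2 libraries. In bulk RNA, fewer cells of a type and less RNA per cell cannot be told apart.

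The cells carried their labelled identity. All 9 macrophage markers had at least 20 reads, led by Lyz2, Cd68, Csf1r and Adgre1, and their junction reads summed to 63396 under IL-10 and 78731 in untreated cells (ratio 0.811), of which Lyz2 gave 31849 and 45047. Of the 9 markers, 3 had intervals above 1, Msr1 at 1.82, Itgam at 1.32 and Fcgr1 at 1.21, and 4 had intervals below 1, with a median of -0.05 on the log2 scale over the list. Of plasmacytoid dendritic cell markers, the cell type that makes most type I interferon, Siglech and Ccr9 had 0 reads in both libraries, while Tcf4 had 177 reads under IL-10 and 116 in untreated cells, Runx2 9 and 10, and Spib 3 and 1. Of 9 neutrophil markers 8 had 0 reads in both libraries, and S100a8 had 26 under IL-10 and 22 in untreated cells. Of 7 T and NK cell markers, 5 had 0 reads in both libraries. Summed reads were 40 under IL-10 against 50 in untreated cells for the B cell list, 93 against 58 for the eosinophil and mast cell list, in which Ccr3 and Epx were at 0, and 748 against 733 for the fibroblast and mesothelial list. Siglecf gave 86 and 48 of the eosinophil and mast cell reads (ratio 1.81, 1.25 to 2.63). The part of these cells in the results was not tested.

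The interferon-stimulated genes as a set had nearly equal summed reads in both libraries. Their summed reads were 5727 with IL-10 and 5775 without, a ratio of 0.999 (95% interval 0.963 to 1.04). Of the 40 measured members, 1 was called higher, Oas1g, and 3 were called lower, Ifi27l2a, Slfn8 and Rtp4. Over all 8529 genes with at least 20 reads, 1.77% were called higher and 1.51% lower. Among genes with 20 to 100 reads, where 3 of the 4 called members lie, these shares were 4.26% and 4.53%. The median log2 ratio of the members was -0.01, against -0.00 over all genes. Of the 40 members, 31 lay within 1.5-fold, against 85% of all genes. The interval of 8 members lay above 1 at any fold and that of 6 lay below 1, against 12.7% and 13% of all genes. Samhd1, the member with the most reads, held 1109 of the summed reads under IL-10 and 1130 of those in untreated cells.

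**Figure D1:**
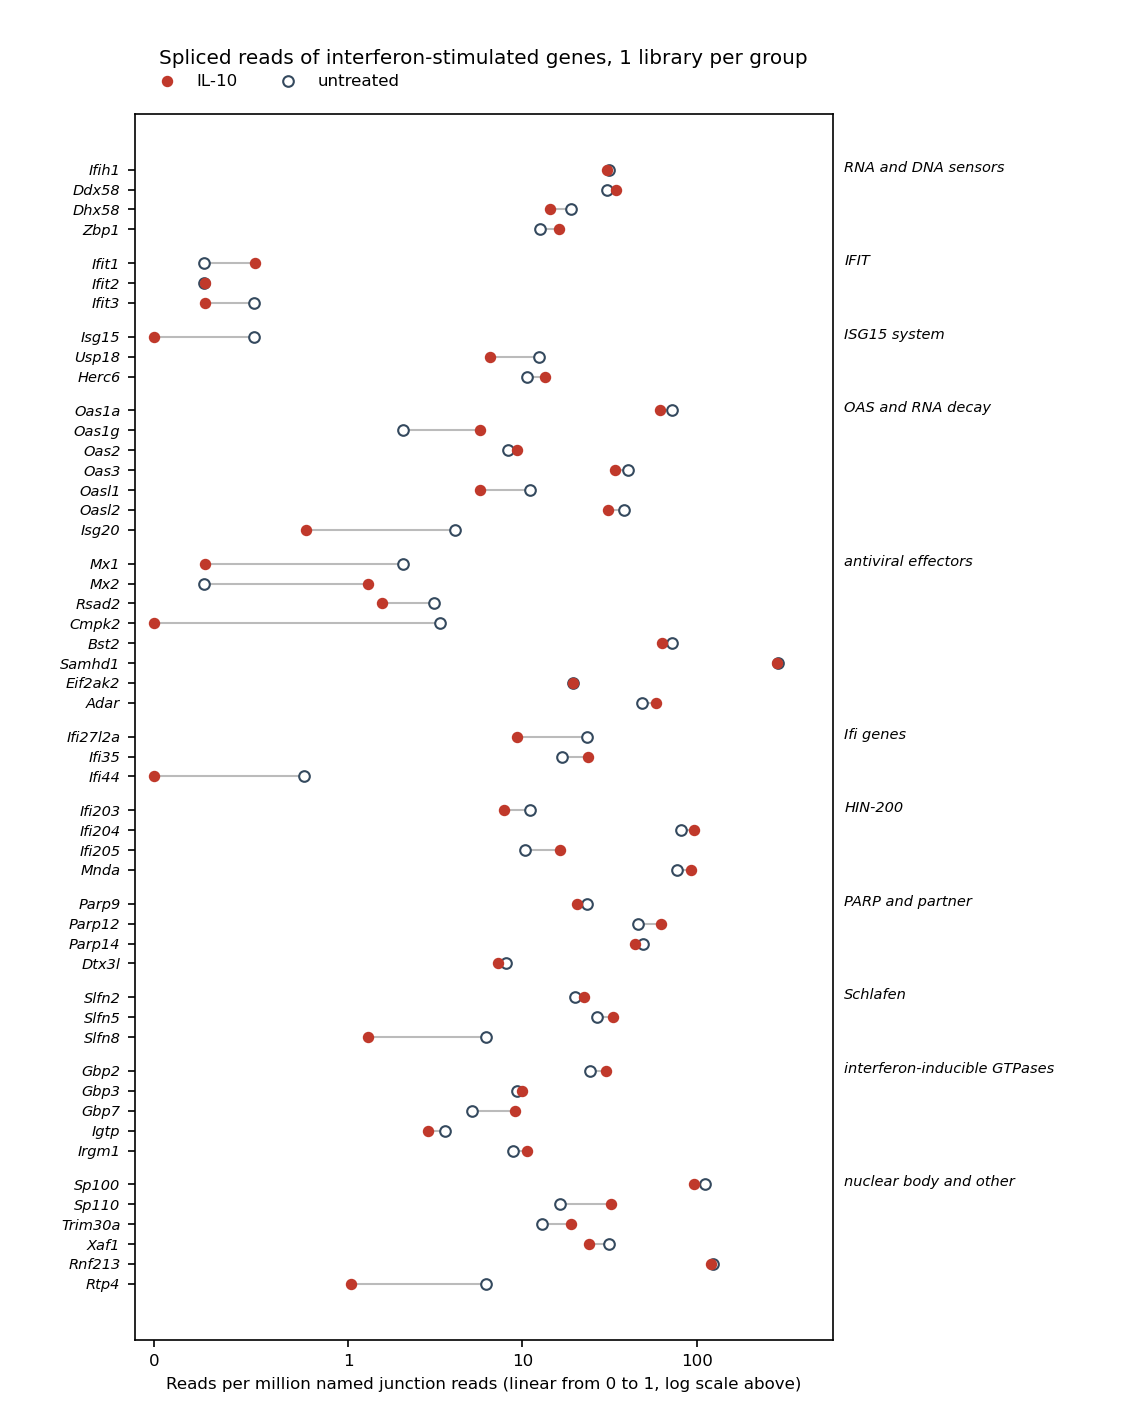
Levels of the 50 interferon-stimulated genes, by role, in reads per 1000000 named junction reads, on an axis that is linear from 0 to 1 and logarithmic above; filled points are the IL-10 library and open points the untreated library, with 1 library each. Most pairs nearly coincide, as for Samhd1 with 1109 and 1130 reads, while Ifi27l2a, Slfn8, Rtp4, Isg20 and Cmpk2 have the IL-10 point to the left and Oas1g to the right.

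The 3 lowest of the 40 members had log2 ratios of -2.43 (Rtp4), -2.14 (Slfn8) and -1.31 (Ifi27l2a), and the 3 highest 1.42 (Oas1g), 0.96 (Sp110) and 0.80 (Gbp7). All genes ranged from -2.95 to 4.10. The reads behind these 6 members were few, from 28 for Rtp4 to 188 for Sp110 over both libraries together.

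**Figure D2:**
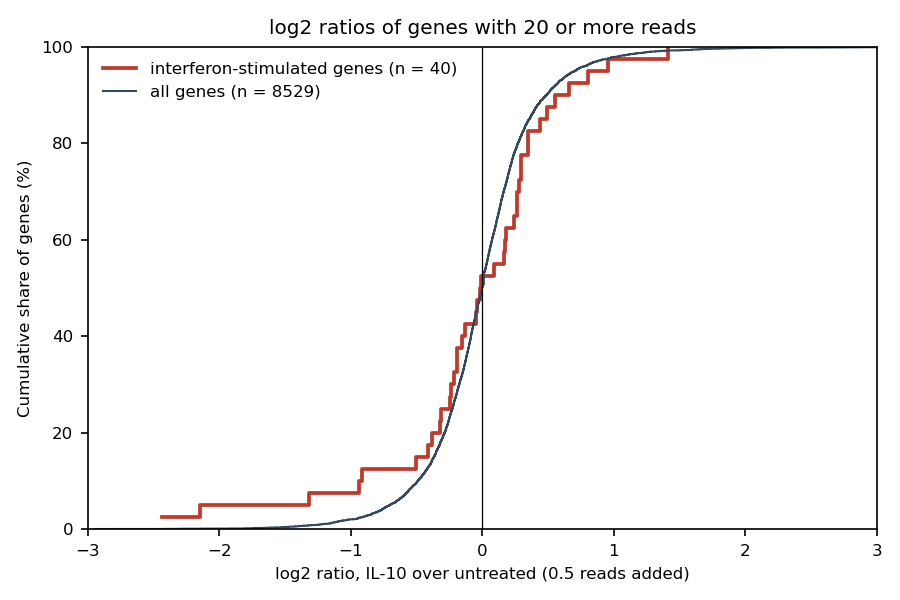
Cumulative share of genes, in percent, by log2 ratio of the IL-10 to the untreated library, for the 40 interferon-stimulated genes and all 8529 genes with at least 20 reads. Both curves cross the middle at log2 ratios of -0.01 and -0.00, and the members' curve starts with Rtp4 and Slfn8 below -2.

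A total of 39 members had a RefSeq promoter to look at, taken as 250 bases before to 50 after the start on build GRCm38.p6. The core of the response element, GAAANNGAAA or TTTCNNTTTC on the other strand, with overlapping matches counted, occurred in 22 of these 39 genes (56.4%), against 3.99% of 27025 genes with a promoter in the same table. A match is a description of letters and not proof of a bound site. Stretches of 6 promoters are shown because these genes are textbook targets with few reads here (Isg15, Ifit1, Ifit3), a called gene (Slfn8) and a pair of neighbouring paralogs that differ in ratio (Oas1g, Oas1a). Capitals mark the motif, and all lie before the start of the gene. They are at chr4:156200855-156200926 on the minus strand (Isg15), chr19:34640755-34640833 on the plus strand (Ifit1), chr19:34583343-34583436 on the plus strand (Ifit3), chr11:83020829-83020888 on the minus strand (Slfn8), chr5:120887614-120887661 on the minus strand (Oas1g) and chr5:120907526-120907575 on the minus strand (Oas1a).
Isg15: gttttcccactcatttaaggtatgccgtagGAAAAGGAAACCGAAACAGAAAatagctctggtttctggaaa
Ifit1: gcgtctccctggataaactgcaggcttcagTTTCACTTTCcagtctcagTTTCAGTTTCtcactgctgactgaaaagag
Ifit3: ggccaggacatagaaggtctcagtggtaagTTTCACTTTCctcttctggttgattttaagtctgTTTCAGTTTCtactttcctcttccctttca
Slfn8: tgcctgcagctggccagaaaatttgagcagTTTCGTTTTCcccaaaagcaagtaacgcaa
Oas1g: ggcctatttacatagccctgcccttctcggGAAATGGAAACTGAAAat
Oas1a: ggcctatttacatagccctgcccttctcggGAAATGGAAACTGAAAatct
Isg15 holds 3 overlapping matches and Ifit1 and Ifit3 hold 2 apart. The Oas1g and Oas1a stretches are identical over the 48 bases they share. Of the measured members, the 18 with a match had a median log2 ratio of 0.13 and the 13 without one a median of -0.02, and the sets were not compared by a test.

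The cytoplasmic sensors that detect viral nucleic acid did not differ beyond their counting error. Ddx58, which encodes the RNA sensor RIG-I, had 133 reads under IL-10 and 119 in untreated cells (ratio 1.13, 0.873 to 1.45). Ifih1, which encodes the sensor of long double-stranded RNA MDA5, had 117 and 121 (0.974, 0.749 to 1.27). Dhx58, which encodes LGP2, a helicase that modulates both of them, had 55 and 74 (0.749, 0.518 to 1.08). These 3 receptors belong to a single protein family, and their intervals all hold 1. Zbp1, a sensor of left-handed nucleic acid that can trigger necroptosis, had 62 and 49 (1.27, 0.862 to 1.89).

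The IFIT genes, which encode proteins that bind foreign RNA and block its translation, had very few junction reads. Reads that lie within an exon were not counted, so these values do not show whether the genes were silent. Ifit1 had 2 reads under IL-10 and 1 in untreated cells, Ifit2 had 1 and 1, and Ifit3 had 1 and 2. Isg15, the ubiquitin-like modifier that is among the genes most strongly induced by interferon, had 0 reads under IL-10 and 2 in untreated cells. These genes have 1 annotated intron each, apart from Ifit2 with 4, and no difference was detectable at this depth. The junction of Ifit3 is also shared in sequence with its copy Ifit3b. The other genes of the ISG15 system had more reads. Usp18, the protease that removes ISG15 from its targets and also dampens signalling at the type I receptor, had 25 reads under IL-10 and 48 in untreated cells (0.525, 0.310 to 0.868), just short of 2-fold. Of its 9 introns read at least 5 times, 5 pointed the same way as its total. Introns with equal counts, such as 4 and 4, were not among these 5. Without the intron with 2 and 11 reads, Usp18 had 23 and 37 (0.626, 0.355 to 1.08). Here and wherever an intron is left out below, it is the one whose removal brought the ratio closest to 1. A move toward 1 was thus fixed in advance. Herc6, which attaches ISG15 in mice, had 52 and 41 (1.28, 0.832 to 1.97).

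The OAS genes encode enzymes that make oligoadenylates on binding double-stranded RNA and so activate RNase L. Together with Isg20 the 7 genes of this group had 568 reads under IL-10 and 685 in untreated cells (0.835, 0.746 to 0.935), and their members went different ways. Oas1a, the most abundant, had 235 reads under IL-10 and 280 in untreated cells (0.846, 0.708 to 1.01). Its neighbour Oas1g had 22 and 8 (2.77-fold higher, 1.19 to 7.20), the only member called higher. Oas3 had 131 and 157 (0.841, 0.662 to 1.07), Oas2 36 and 32 (1.13, 0.684 to 1.89), and Oasl2 119 and 149 (0.805, 0.627 to 1.03). Oasl1, an inactive relative known in mice to hold back translation of Irf7, had 22 and 43 reads (0.516, 0.294 to 0.881), and all 4 introns read at least 5 times pointed the same way. Without the intron with 0 and 7 reads, Oasl1 stood at 0.616 (0.345 to 1.08). Isg20, an RNA exonuclease, had 3 reads under IL-10 and 16 in untreated cells (0.189, 0.0353 to 0.660). With 19 reads Isg20 was the unmeasured member closest to the minimum of 20, and Igtp with 25 reads was the measured member closest to it. Of the 16 untreated reads of Isg20, 11 lay on 1 intron that had 0 reads with IL-10.

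The value of Oas1g rests on few reads and on near-identical copies. Oas1g lies on mouse chromosome 5 of build mm9, with its introns between positions 121327219 and 121335781 on the minus strand. Of its 5 detected introns, the 2 most read had 9 and 3 reads each. The 50 bases around a junction occur also in Oas1a for 2 of these 5 junctions, which hold 3 reads under IL-10 and 2 in untreated cells, so most reads of Oas1g lie on junctions that differ from Oas1a. In turn, 3 of 6 junctions of Oas1a, with 134 and 178 reads, also occur in Oas1g. A matching pair of junctions, in 40 bases of GENCODE M21 transcript sequence with the bases that meet at the junction in capitals, shows how close the genes are.
Oas1g: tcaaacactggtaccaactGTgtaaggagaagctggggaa
Oas1a: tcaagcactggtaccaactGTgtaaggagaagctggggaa
These stretches differ at 1 base. The Oas1g junction had 9 reads under IL-10 and 3 in untreated cells, and the Oas1a junction 55 and 49. Without 1 of the 2 most read introns, Oas1g had 13 and 5 reads (2.62, 0.876 to 9.39) and was no longer called. Its call also ended with a 99% interval (0.947 to 9.84). Within Oas1a, the last 2 introns had 8 and 24 and 7 and 23 reads, while the 3 introns before them had 39 and 30, 55 and 49, and 47 and 47.

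Among the direct antiviral effectors, the members with many reads had ratios close to 1. Samhd1, which starves reverse transcription of nucleotides in myeloid cells, had 1109 reads under IL-10 and 1130 in untreated cells (0.989, 0.909 to 1.08), the narrowest interval of the set. Bst2, the tether that holds budding virions at the membrane, had 244 and 281 (0.875, 0.734 to 1.04), and all 4 introns pointed the same way. Eif2ak2, which encodes the translation-blocking kinase PKR, had 75 and 76 (0.994, 0.713 to 1.39). Adar, which edits adenosine in double-stranded RNA, had 225 and 189 (1.20, 0.984 to 1.46). Adar has a long, interferon-inducible protein and a shorter constitutive one, which start from different first exons. The first intron of transcripts that code for the long form (1152 or 1178 codons) had 6 reads under IL-10 and 7 in untreated cells, and that of the short form (930 codons) had 0 and 4, so the forms could not be compared at this depth.

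The remaining effectors are classical interferon-induced genes, and each had fewer than 20 reads. Cmpk2, a mitochondrial nucleotide kinase induced together with its neighbour Rsad2, had 0 reads under IL-10 and 13 in untreated cells, spread over 3 introns with 5, 6 and 2. The upper bound of its ratio was 0.331. Rsad2, which encodes viperin, had 6 and 12 reads (0.504, 0.155 to 1.45). Mx1, which belongs to a family of GTPases, had 1 and 8 (0.126, 0.00284 to 0.939), and Mx2 had 5 and 1 (5.04, 0.564 to 238). Ifi44 had 0 and 3. With the IFIT genes, Isg15 and Isg20, these are the 10 members under 20 reads, and together they had 19 reads under IL-10 and 59 in untreated cells (0.324, 0.183 to 0.552). This sum was formed after the values were seen, and Isg20 with 16 and Cmpk2 with 13 gave the most untreated reads.

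Ifi27l2a, a small interferon-inducible membrane protein, was the called member with the most reads. It had 36 reads under IL-10 and 91 in untreated cells, 2.51-fold lower (1.69 to 3.80). It lies on chromosome 12 of mm9, with introns between 104680594 and 104681836 on the minus strand, and all 3 introns pointed the same way. The introns were not equally different: from the start of the gene they had 9 and 33, 10 and 37, and 17 and 21 reads. The junctions of introns 2 and 3 are shown in 40 bases each, with the bases that meet in capitals, because intron 2 shows the difference and intron 3 nearly equal counts.
Ifi27l2a intron 2: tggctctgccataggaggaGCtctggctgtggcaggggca
Ifi27l2a intron 3: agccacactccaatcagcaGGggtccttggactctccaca
Without intron 2, Ifi27l2a had 26 and 54 reads (0.485, 0.292 to 0.788) and was still called lower. Ifi35, a leucine-zipper protein released by macrophages as a danger signal, had 91 and 65 reads (1.41, 1.01 to 1.97), and 5 of its 6 introns read at least 5 times pointed the same way. Counted on its most-read intron by itself, Ifi35 had 16 and 21. With the intron of 20 and 7 reads left out, Ifi35 had 71 and 58 (1.23, 0.860 to 1.78).

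The HIN-200 genes, clustered on chromosome 1, encode DNA-binding proteins of the nucleus and cytoplasm. Of the 4, 3 had intervals above 1, against 12.7% of all genes. Ifi204, a DNA sensor of mouse macrophages that induces interferon, had 370 reads under IL-10 and 316 in untreated cells (1.18, 1.01 to 1.38), and 7 of 8 introns pointed the same way. These 7 include an intron with equal counts of 7 and 7 reads. Mnda, which the annotation holds under the name Ifi211, had 355 and 298 (1.20, 1.03 to 1.40). Ifi205 had 63 and 40 (1.59, 1.05 to 2.42), and without an intron with 12 and 0 reads it had 51 and 40 (1.28, 0.833 to 1.99). Ifi203 had 30 and 43 (0.703, 0.426 to 1.15). Summed over the 4 genes, the reads were 818 and 697 (1.18, 1.07 to 1.31). The genes share sequence: the 50 bases around 2 of 8 junctions of Ifi204, 2 of 5 of Ifi205 and 4 of 6 of Mnda also occur in other genes of the cluster, with 213 and 213 reads of Mnda on such junctions. The split of reads among these genes is therefore uncertain. Counted on its most-read intron by itself, Mnda had 86 and 102, and without an intron with 109 and 59 reads it had 246 and 239 (1.04, 0.864 to 1.24). Without an intron with 30 and 16 reads, Ifi204 had 340 and 300 (1.14, 0.975 to 1.34). With 1 intron each left out, picked to bring the ratio closest to 1, the intervals of Ifi204, Ifi205 and Mnda all held 1.

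The PARP genes of the set encode ADP-ribosyl transferases induced by interferon. Parp12, which binds RNA and restrains translation, had 241 reads under IL-10 and 179 in untreated cells (1.36, 1.11 to 1.66), and 9 of its 11 introns pointed the same way. These 9 include introns with equal counts of 4 and 4 reads. Without the intron with 41 and 15 reads Parp12 had 200 and 164 (1.23, 0.995 to 1.52). Parp14, known for promoting Stat6 responses to interleukin 4, had 169 and 190 (0.896, 0.724 to 1.11). Parp9 had 79 and 91 (0.875, 0.639 to 1.20), and its partner in a ubiquitin ligase complex, Dtx3l, had 28 and 31 (0.910, 0.526 to 1.57). Parp9 and Dtx3l sit side by side and are transcribed from a shared promoter, and both had intervals that hold 1.

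Among the Schlafen genes, which encode regulators of immune cell growth and of transfer RNA, 1 of 3 was called lower. Over all genes this share was 1.51%, and among genes with 20 to 100 reads 4.53%. Slfn8 had 5 reads under IL-10 and 24 in untreated cells, 4.76-fold lower (1.78 to 16.0). It lies on chromosome 11 of mm9, with introns between 82817392 and 82834078 on the minus strand. From the start of the gene its introns had 0 and 9, 1 and 4, 1 and 4, 0 and 4, and 3 and 3 reads. Without the intron with 0 and 9 reads, Slfn8 had 5 and 15 (0.336, 0.0955 to 0.972) and was still called lower. The junction with 0 and 4 reads is shared in sequence with Slfn9, so to which of them its reads belong is uncertain. Slfn5 had 127 and 104 (1.23, 0.942 to 1.61) and Slfn2, which keeps T cells and monocytes quiescent in mice, had 87 and 78 on its only intron (1.12, 0.818 to 1.55).

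The interferon-inducible GTPases attack the vacuoles of intracellular pathogens and answer chiefly to interferon gamma, and 4 of 5 had ratios over 1 with intervals that hold 1. Gbp2 had 116 reads under IL-10 and 95 in untreated cells (1.23, 0.930 to 1.63). Gbp7 had 35 and 20 (1.76, 0.990 to 3.22), Gbp3 38 and 36 (1.06, 0.656 to 1.73), and Irgm1, which protects host membranes from the other GTPases, 41 and 34 (1.22, 0.752 to 1.97). Igtp had 11 and 14 (0.792, 0.325 to 1.88). Summed over the 5 genes, the reads were 241 and 199 (1.22, 1.01 to 1.48). None of the 5 was called.

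**Figure D3:**
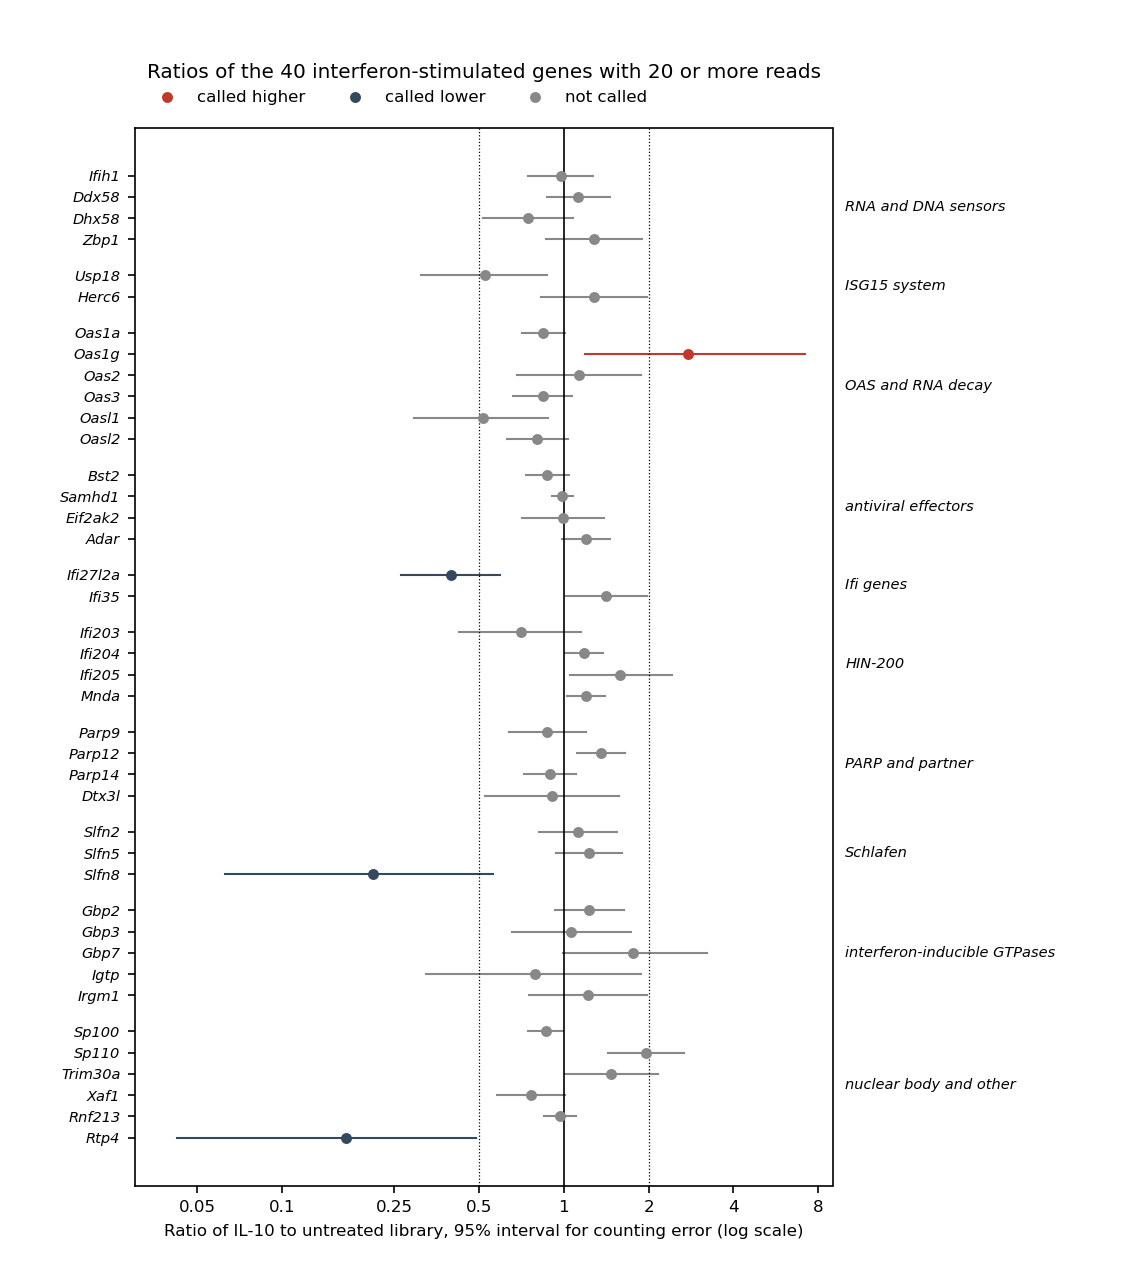
Ratio of the IL-10 to the untreated library on a log axis for the 40 members with at least 20 reads, with 95% intervals for counting error only; dotted lines mark 2-fold either way. Oas1g is called higher, and Ifi27l2a, Slfn8 and Rtp4 are called lower, while Sp110 at 1.95 and Oasl1 at 0.516 lie just inside the lines.

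The last group holds nuclear body proteins and single genes. Sp110, a nuclear body protein, had 124 reads under IL-10 and 64 in untreated cells (1.95, 1.43 to 2.68), and all 6 introns read at least 5 times pointed the same way. Its interval lay well above 1, but the ratio stayed just below 2-fold. With the intron of 24 and 7 reads left out, Sp110 had 100 and 57 (1.77, 1.26 to 2.49). The sequence around 5 of its 10 junctions, with 40 and 18 reads, also occurs in related gene models, and counted on its most-read intron by itself, it had 39 and 30. Sp100, a core part of PML nuclear bodies, had 370 and 432 (0.863, 0.749 to 0.994), with 13 of 22 introns on the same side. With the intron of 20 and 33 reads left out, Sp100 had 350 and 399 (0.884, 0.763 to 1.02). Trim30a, a brake on NF-kB signalling in mouse macrophages, had 73 and 50 (1.47, 1.01 to 2.15). With the intron of 16 and 7 reads left out, Trim30a had 57 and 43 (1.34, 0.883 to 2.03). Its locus held a further 135 and 105 reads on 10 junctions that match no annotated intron in length (1.30, 0.996 to 1.69). Xaf1, a promoter of cell death, had 92 and 121 (0.766, 0.578 to 1.01). Rnf213, a giant ubiquitin ligase that marks intracellular bacteria, had 461 and 479 (0.970, 0.851 to 1.10) over 61 detected introns.

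Rtp4, a chaperone of opioid receptors that is induced by interferon, had the lowest ratio of the measured members, and that ratio rested on a single junction. Rtp4 had 4 reads under IL-10 and 24 in untreated cells, 5.95-fold lower (2.05 to 23.6). Both of its detected junctions leave from the same donor at position 23610236 of chromosome 16 of mm9, on the plus strand. The one that ends at 23612966 had 0 reads under IL-10 and 21 in untreated cells, and the one that ends at 23613183 had 4 and 3. They are shown in 40 bases each, with the bases that meet in capitals.
Rtp4, near acceptor: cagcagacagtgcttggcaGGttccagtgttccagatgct
Rtp4, far acceptor: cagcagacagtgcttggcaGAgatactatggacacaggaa
The junction that would lead out of the exon after the near acceptor matched no annotated intron and had 1 read with IL-10 and 0 without. On the far acceptor alone, Rtp4 had a ratio of 1.34 (0.227 to 9.17), so the direction of its ratio turned without the other junction. The donor had fewer than 20 reads in the IL-10 library, so the shares of the junctions were not compared.

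**Figure D4:**
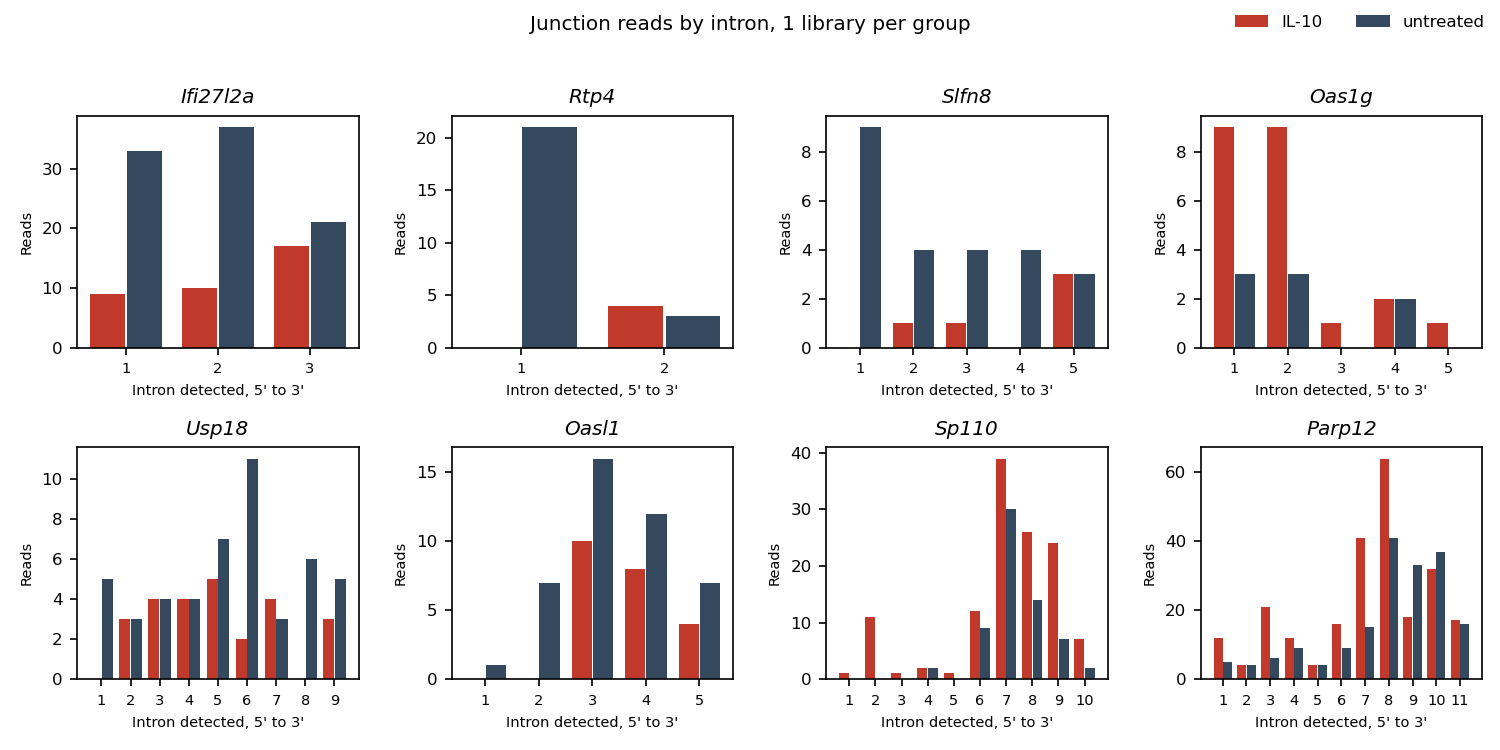
Junction reads by detected intron, in order from the start of the gene, for the called genes Ifi27l2a, Rtp4, Slfn8 and Oas1g and for Usp18, Oasl1, Sp110 and Parp12; left bars are the IL-10 library and right bars the untreated library, and in Rtp4 both introns share a donor. The difference in Rtp4 stands on 1 junction with 0 and 21 reads, that in Ifi27l2a mainly on introns 1 and 2 with 9 and 33 and 10 and 37 reads, and that in Sp110 on all introns read at least 5 times.

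Introns of the same gene often disagreed, in the members as in other genes. With scaling by library totals, an intron with equal counts had a ratio of 1.01 and was taken to point higher. Of 338 member introns read at least 5 times, 221 (65.4%) pointed the same way as the total of their gene, against 65.2% over all genes. In 7 of 38 members with at least 2 such introns, every intron pointed the same way, against 1101 of 8054 such genes in all. Of 156 member introns with 20 or more reads, 11 had an interval above 1 and 9 an interval below 1, against 13.8% of all introns on either side together. Rnf213 shows the range, with 1 intron at 42 and 22 reads and another at 0 and 14 while the gene as a whole stood at 0.970. Spread between introns of a gene beyond counting error is not covered by the intervals given here.

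Splice site choice within the members did not meet the threshold anywhere. Shares could be compared at 35 donors or acceptors in 12 members with at least 20 reads in each library, and 0 of 86 junction shares differed by 20 percentage points with intervals apart, against 0.115% over all genes. The largest difference was in Xaf1, where a donor at a junction starting at 72116965 of chromosome 11 used the acceptor side ending at 72122108 in 23 of 29 reads with IL-10 (79.3%, 60.3 to 92.0) and 23 of 44 without (52.3%, 36.7 to 67.5).

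None of the measured genes that carry the interferon signal from its receptors was called. Of 7 interferon genes looked for, Ifnb1, Ifna1, Ifna2, Ifna4, Ifng, Ifnl2 and Ifnl3, none had a junction read, and as Ifnb1 and the Ifna genes have no intron, junction reads do not measure them. Of the 10 genes from receptor to ISGF3, 0 were called. Of their intervals, 3 lay above 1 and 1 below 1, against 12.7% and 13% of all genes. The summed reads were 7193 under IL-10 and 6398 in untreated cells (1.13, 1.10 to 1.17), of which Jak1 gave 2853 and 2032. The median log2 ratio of the 10 genes was 0.02. The ratio was 1.11 (0.889 to 1.39) for Stat2 and 1.01 (0.845 to 1.20) for Irf9. The receptor genes stood at 1.14 (1.01 to 1.28) for Ifnar1, 1.02 (0.938 to 1.12) for Ifnar2, 0.825 (0.737 to 0.924) for the interferon gamma receptor gene Ifngr1 and 0.970 (0.886 to 1.06) for Ifngr2. The kinase gene Jak1 had 2853 reads under IL-10 and 2032 in untreated cells (ratio 1.41, lower bound 1.34), Jak2 318 and 244 (1.31, 1.11 to 1.56), and Tyk2 337 and 370 (0.918, 0.789 to 1.07). Jak1 and Jak2 had intervals well clear of 1 at less than 2-fold.

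Of 7 interferon regulatory factor genes 0 were called. Irf7, the factor that amplifies interferon production and is itself interferon-stimulated, had 263 reads under IL-10 and 321 in untreated cells (0.826, 0.699 to 0.975), and Irf5 had 907 and 1082 (0.845, 0.772 to 0.923). Of 7 measured genes in the list for sensing upstream of interferon, and of 4 measured brakes on the pathway, 0 were called. These 7 were Mavs, Tmem173, Tlr7, Tbk1, Ikbke, Trim25 and Ticam1, so the list holds adaptors and other signalling genes besides sensors. Cgas, Tlr3 and Tlr9, also on the list, had too few reads to be measured. Their reads were 1 under IL-10 and 3 in untreated cells, 5 and 5, and 1 and 0. Tmem173, which encodes the adaptor STING, had 187 and 113 (1.67, 1.31 to 2.13), Trim25, which activates RIG-I, 488 and 357 (1.38, 1.20 to 1.58), and Mavs, the mitochondrial adaptor of RIG-I and MDA5, 75 and 113 (0.669, 0.493 to 0.903). STING and MAVS thus had intervals on opposite sides of 1.

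A further 69 listed interferon-inducible genes outside the set had 45 measured members. Of these, 1 was called higher and 1 lower, against 1.77% and 1.51% of all genes. Nlrc5, the activator of class I antigen presentation genes, had 143 reads under IL-10 and 39 in untreated cells (3.69-fold higher, 2.58 to 5.41), a difference larger than that of any member of the set with as many reads. Trim34a had 6 and 17 (0.356, 0.115 to 0.945). Over all 108 pathway genes that are no members, 72 were measured, with the same 2 calls and a median log2 ratio of 0.03. The class I peptide genes Tap1 (1.39, 1.10 to 1.75) and Psmb9 (0.676, 0.465 to 0.977) lay on opposite sides of 1. The intervals of Tap2 (0.949, 0.806 to 1.12), Psmb8 (0.886, 0.762 to 1.03) and Psmb10 (1.12, 0.967 to 1.30) held 1. The chemokine genes Cxcl10 and Cxcl11, strong interferon targets in macrophages, had 0 reads in both libraries, and Cxcl9 had 0 with IL-10 and 1 without.

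**Figure D5:**
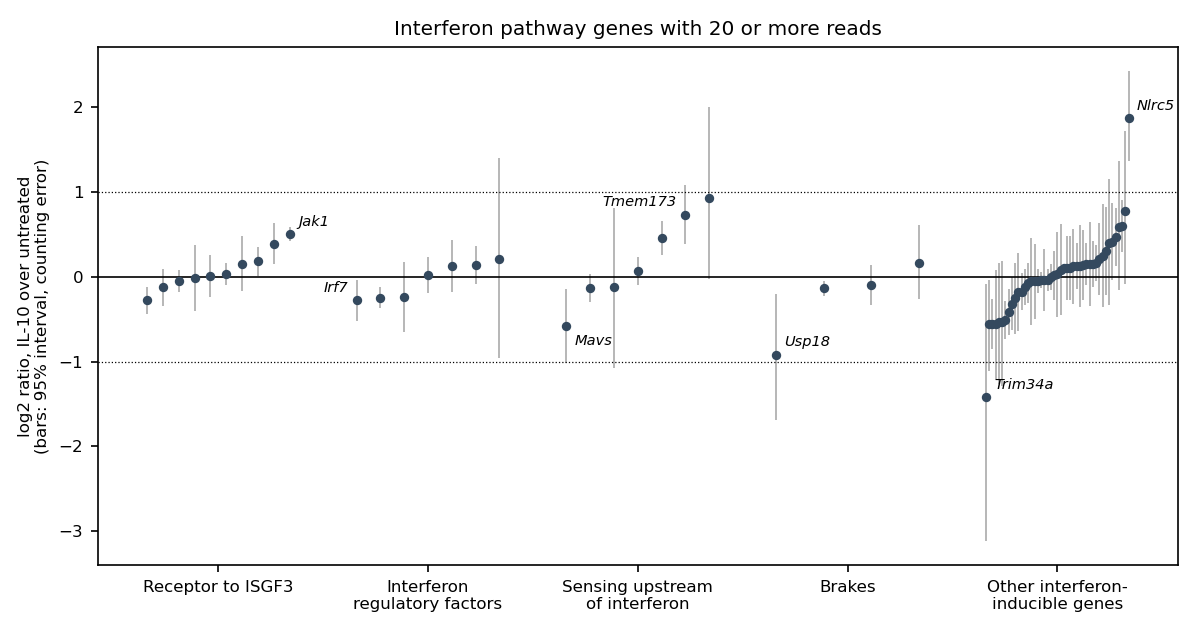
log2 ratio of the IL-10 to the untreated library for interferon pathway genes with at least 20 reads, by list, each point a gene ordered within its list and each bar its 95% interval for counting error. Nlrc5 at 1.87 and Trim34a at -1.42 pass the dotted 2-fold lines, and Ticam1 at 0.93 and Usp18, a member of the set shown among the brakes, at -0.92 lie just inside them.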

How the data were processed

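RNA of 2 libraries, IL-10-treated and untreated macrophages, was compared. The deposited values are a count of reads per splice junction, unscaled, per the file headers, which name TopHat. Per the submitters' processing notes the genome build was mm9 and Cufflinks was also used. Tool versions, filters and the handling of reads with several placements are not given in the sources used here.

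Junctions were named from GENCODE M21 (build GRCm38) where chromosome, strand and intron length matched, at an offset between builds of up to 20 Mb that 2 or more introns of that gene had in common. A gene with a lone matched intron was named where its offset equalled that of a neighbouring gene. Of 131057 junctions, 82.4%, with 98.3% of reads, were named. Mnda was looked up as Ifi211, for which RefSeq lists it as another name. Coordinates of genes and junctions are those of mm9, and those of promoters are GRCm38.p6.

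Gene sums were divided by the library's total over introns of 1 gene. Log2 ratios used 0.5 added reads. Splice shares carried Clopper-Pearson 95% intervals and needed 20 reads per library, a difference of 20 points and separate intervals. Promoter sequences are RefSeq's and junction sequences GENCODE's. Members, lists and rules were chosen with earlier results of these data known. Full values were given for called members, the 3 most read and the most different member of each role group, and further members and pathway genes were named after their values were seen. Alternatives were the TMM factor of edgeR 4.0.16 (R 4.3.3), size factors of DESeq2 1.42.0, other totals, minima, folds, intervals, pseudocounts and intron choices. The values of 1 pathway gene are not reported here. The calling procedure was tested on simulated data. Python 3.11.15, numpy 2.4.6, pandas 2.3.3, scipy 1.17.1 and matplotlib 3.10.9 were used.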

Additional observations from a re-analysis of the deposited data

Results flagged for a closer look

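Among junctions outside the annotation, those within the locus of Mnda (Ifi211) had more reads in the IL-10 library. The 9 such junctions had 38 reads with IL-10 and 19 without, a ratio of 2.02 (95% interval 1.13 to 3.70), while the annotated introns of the gene stood at 1.20. The locus was picked for a ratio of at least 2 with an interval above 1, and lower ratios were not searched for. Ifi204, in the same cluster, had 12 and 20 such reads (0.605, 0.269 to 1.30), and genes of the cluster share junction sequence. Over all junctions, 98.35% of reads with IL-10 and 98.29% without matched an annotated intron. Over all members, 89 junctions outside the annotation had 319 and 268 reads (1.20, 1.02 to 1.42).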

How the results depend on the processing

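Over 13 planned settings, 506 pairs of a measured member and a setting were compared: 487 kept their call and stayed within the counting interval, 7 moved outside it, 8 lost a call, 4 gained one and 0 reversed. With no minimum of reads, 6 members were called lower, 200 of all genes were lower and 3 pathway genes were higher. With at least 100 reads, 0 members were higher and 1 (Ifi27l2a) lower, and 39 and 10 of all genes and 0 pathway genes in the lower direction were called. At 1.5-fold, 3 members were higher and 5 lower, 368 and 350 of all genes, and 3 pathway genes were higher. At 3-fold, 0 members were higher, all genes gave 56 and 30, and 0 pathway genes were lower. With a 99% interval, 0 members were higher, 78 of all genes were lower and 0 pathway genes were lower. Counting each gene's most-read intron by itself, 0 members and 0 pathway genes were higher. In a setting added after seeing the data, the intron whose removal brought each gene closest to a ratio of 1 was left out: 0 members were called higher and 2 lower, and Rtp4 reversed to a log2 ratio of 0.37. Scaling by edgeR, DESeq2 or all junction reads gave 1 higher and 3 lower members. No paired analysis was possible because each group has 1 library. The cause of these changes was not tested. At this depth, 10 of 50 members had fewer than 20 reads, the minimum for a call.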
